A study of Mus musculus with 6 samples.

Results

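The imprinted genes of mouse chemically induced cardiovascular progenitor cells (ciCPCs) were described, as 40 listed genes out of 53801 in the count files. The members were taken by symbol from a fixed list, with no measured value used as a rule. The list and its grouping were made with earlier results of these data known. Members were grouped by chromosomal cluster and by the parental allele each is known to be expressed from. All 40 were found, and 39 of them were among the 15143 genes with enough counts to be tested. Slc22a18, with 2 to 8 counts per library, was not tested.

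RNA was sequenced from ciCPCs, progenitors made from fibroblasts by chemical reprogramming, at passage 3 in 3 libraries and at passage 20 in 3 libraries, to follow the cells through long expansion. All cells were wild type, of mixed C57BL/6 and 129J/SvE descent, and came from colonies picked on day 14 of reprogramming. Both passages grew in 1 medium that held the growth factors BMP4 and Activin A, CHIR99021, which inhibits glycogen synthase kinase and so activates Wnt signalling, and SU5402, which inhibits FGF receptors. The labels do not say that replicates were separate cultures or that both passages came from the same colonies, so p-values reflect the spread of these libraries alone, part of which may be technical. Passage cannot be told apart from the culture, harvest or library batch.

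Imprinted genes are transcribed mainly from the allele inherited from the mother or mainly from the allele inherited from the father. They lie in clusters under control regions that carry DNA methylation from the egg or the sperm, and in several clusters a long noncoding RNA made from the unmethylated allele silences its neighbours. Many act on fetal growth, and maternally expressed genes often restrain it while paternally expressed genes often promote it. The counts used here do not separate alleles, so which allele gave the RNA was not measured.

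Levels are CPM, the counts of a gene relative to the total of its library, scaled with TMM factors, which equalise libraries by the bulk of their genes, and folds are passage 20 against passage 3. A gene was called higher or lower where edgeR's quasi-likelihood test gave a Benjamini-Hochberg adjusted p under 0.05 over all genes tested. Total counts per library ranged from 13995799 to 17721788 at passage 3 and from 11387738 to 13285419 at passage 20. Passage 20 replicate 3 stood apart from replicates 1 and 2 of its group, with a chi-square per degree of freedom of 10.6 and 8.72 against them, where those 2 differed by 2.04 and passage 3 libraries by 1.75 to 2.63. For 23 of the 39 members (59.0%) its level lay between the passage 3 mean and the mean of the other passage 20 libraries, against 56.6% of all genes tested. Without it, 16 members were higher and 16 lower, beside 6103 and 6266 of all genes. With it, 13 members were higher and 15 lower, beside 5604 and 5641 of all genes. For the labelled cell type, 10 cardiac progenitor regulators were looked at. None was at 0, but at passage 3 Mesp1 averaged 0.146 CPM and Nkx2-5 1.15 CPM. Neuron, fibroblast and pluripotency markers were detected too, so detection alone does not establish the label. Of the 10 regulators, 5 were higher and 5 lower at passage 20 (100% called, beside 74.3% of all genes tested). Mef2c went from 39.1 ± 2.63 to 105 ± 3.74 CPM and Isl1 from 63.2 ± 5.72 to 7.45 ± 0.534 CPM.

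Of the 39 tested members, 13 were higher and 15 lower at passage 20, and 11 did not pass the test. Across all genes tested, 74.3% were called, 37.0% as higher and 37.3% as lower, so the share of members called (28 of 39) was close to the background. The groups did not overlap in 27 members, against 77.5% of all genes tested. The median log2 fold change was 0.02 over the members and -0.01 over all genes. A change of at least 2-fold was called in 6 members, with 27.6% of all genes tested passing the same rule. H19, Ascl2, Cd81 and Grb10 were the 4 that rose by that much, and Dio3 and Peg12 the 2 that fell. With scaling by library sizes only, the median of all genes moved to -0.34 and 7 members were higher and 21 lower. Thus 25.0% of member calls were higher in place of 46.4%, beside 29.9% in place of 49.8% for all genes. The direction of small changes is relative to the TMM scaling.

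**Figure D1:**
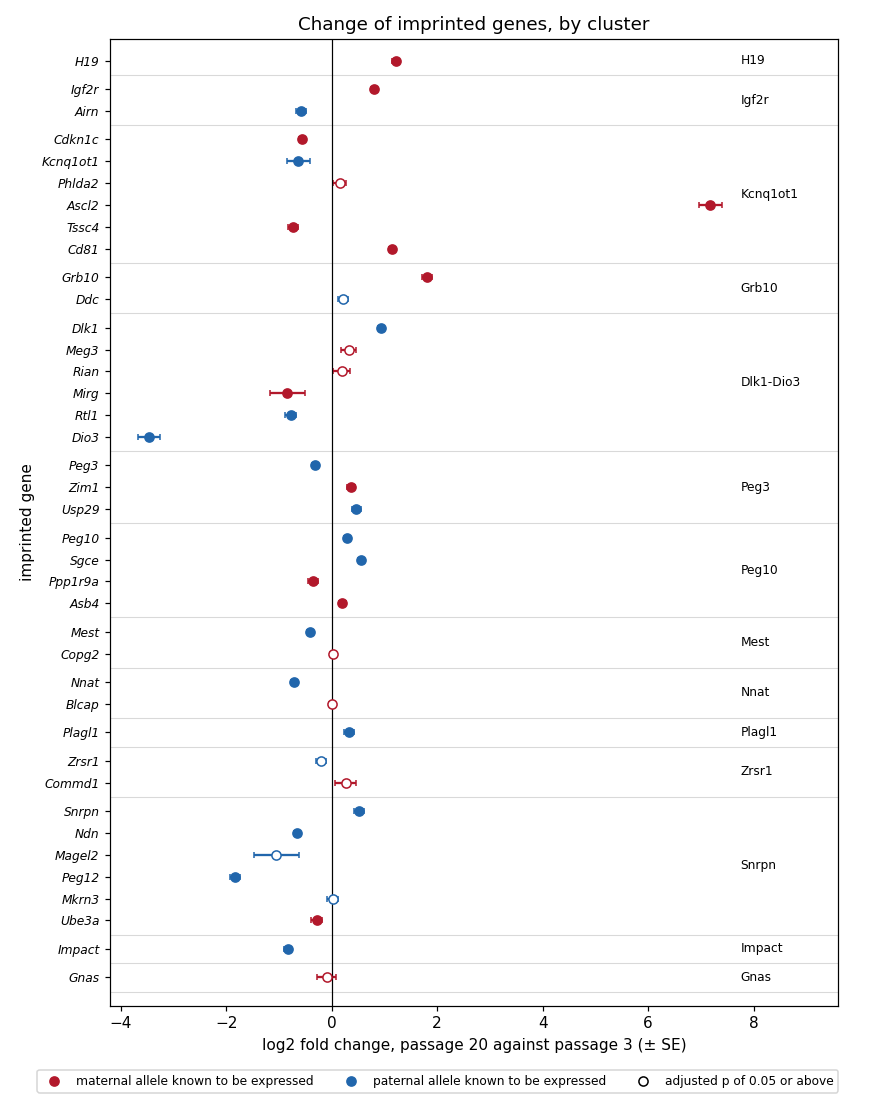
Log2 fold change of each tested imprinted gene at passage 20 against passage 3, with its standard error, by cluster. Colour gives the allele known to be expressed and open points did not pass the test. Ascl2 lies at 7.17 and Dio3 at -3.46, and within most clusters with several members the points fall on both sides of 0.

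H19, a long noncoding RNA known to be expressed from the maternal allele and to restrain growth in the mouse embryo, was the most abundant member per length in both passages. H19 (ENSMUSG00000000031, chr7:142575529-142578143 on GRCm38) was at 3204, 3200.4 and 2957 CPM at passage 3 and 7707, 7423 and 6528 CPM at passage 20. All passage 20 libraries lay above all passage 3 libraries, with passage 20 replicate 3 the lowest of its group. It rose 2.31-fold, from 3120.5 ± 142 to 7219 ± 615 CPM (SD, n = 3 per passage; log2 fold change 1.21, SE 0.07, edgeR Benjamini-Hochberg adjusted p = 4.73e-08). H19 alone took 0.330% to 0.361% of all counts at passage 3 and 0.598% to 0.672% at passage 20, and the 40 members together took 1.75% to 1.82% and 1.92% to 2.08%.

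The first exon of H19 holds the hairpin of miR-675, the 1 hairpin that RefSeq places inside H19, and its arms are shown because both arms are cut from the H19 transcript. The RefSeq sequences (GRCm38.p6, minus strand) are printed with the seed, bases 2 to 8, in capitals, and the arms have different seeds.
miR-675-5p: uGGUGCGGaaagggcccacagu
miR-675-3p: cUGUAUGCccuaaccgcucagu
Mature miRNAs were not measured here, so the rise of H19 says nothing of their levels.

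At the Igf2r cluster the receptor gene and its antisense RNA moved in opposite directions. Igf2r encodes the cation-independent mannose 6-phosphate receptor, which carries ligands to lysosomes, and is known to be expressed from the maternal allele. Airn, transcribed on the opposite strand from an intron of Igf2r on the paternal allele, is known to silence Igf2r in cis. Igf2r (ENSMUSG00000023830, chr17:12682406-12769664) was at 1689.6, 1699 and 1679 CPM at passage 3 and 3053, 3054 and 2694 CPM at passage 20, so the passages did not overlap. It rose 1.74-fold (log2 fold change 0.80, SE 0.06, edgeR Benjamini-Hochberg adjusted p = 3.39e-07). Airn (ENSMUSG00000078247, chr17:12741311-12860136) was at 37.3, 34.1 and 32.1 CPM at passage 3 and 23.7, 25.4 and 20.4 CPM at passage 20, again without overlap. It fell, with a passage 20 level 1.49-fold lower (log2 fold change -0.58, SE 0.10, edgeR Benjamini-Hochberg adjusted p = 0.000236). The ratio of Igf2r to Airn counts within a library, which does not depend on the scaling between libraries, went from 49.1 ± 3.51 to 127 ± 6.05. The exons of the genes do not overlap, but Airn lies partly inside the Igf2r gene body, and the labels do not say whether reads were counted by strand.

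The Kcnq1ot1 cluster on distal chromosome 7 held the member with the largest change, and its maternally expressed genes did not move together. Kcnq1ot1 is a long unspliced antisense RNA of the paternal allele that is known to silence its neighbours, among them Cdkn1c, Phlda2 and Slc22a18. Kcnq1ot1 (ENSMUSG00000101609, chr7:143203458-143296549) was at 61.6, 60.9 and 52.2 CPM at passage 3 and 45.1, 43.5 and 24.6 CPM at passage 20. All passage 20 libraries were lower than all passage 3 libraries, and passage 20 replicate 3 was far below the other two. It fell, 1.55-fold lower (log2 fold change -0.63, SE 0.21, edgeR Benjamini-Hochberg adjusted p = 0.0312). Without that library the log2 fold change was -0.40 (edgeR adjusted p = 8.60e-06), and without passage 3 replicate 1 or 2 the call was lost, with edgeR adjusted p of 0.0628 and 0.0543.

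Cdkn1c, which encodes the cyclin-dependent kinase inhibitor p57, fell at the same time as the antisense RNA. Cdkn1c (ENSMUSG00000037664, chr7:143458339-143461050) was at 333, 360.1 and 335 CPM at passage 3 and 223, 249 and 226 CPM at passage 20, with no overlap between passages. The passage 20 level was 1.47-fold lower (log2 fold change -0.56, SE 0.06, edgeR Benjamini-Hochberg adjusted p = 5.16e-06). The ratio of Cdkn1c to Kcnq1ot1 counts was 5.41, 5.91 and 6.42 at passage 3 and 4.94, 5.72 and 9.21 at passage 20, so the passages overlapped and the highest ratio was in passage 20 replicate 3. Phlda2, a pleckstrin homology gene known to restrain placental growth, was at 9.35 to 10.9 CPM at passage 3 and 9.65 to 12.6 CPM at passage 20 and did not pass the test. Slc22a18, a transporter gene, was at 0.404 to 0.507 CPM and 0.198 to 0.398 CPM.

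Ascl2, Tssc4 and Cd81 lie at the far end of the cluster and are known to be imprinted mainly in the placenta. Ascl2, which encodes a helix-loop-helix transcription factor required for the trophoblast of the mouse placenta and known as a Wnt target in intestinal stem cells, rose the most of all members. Ascl2 (ENSMUSG00000009248, chr7:142966829-142969264) was at 0.190, 0.185 and 0.253 CPM at passage 3 and 36.6, 32.2 and 27.2 CPM at passage 20. The passage 3 libraries held only 3 to 5 counts each, and every passage 20 library lay far above them. Pooled over libraries, 11 counts at passage 3 stood against 1025 at passage 20, a ratio of 149 with a 95% counting interval of 83.1 to 300.1, which covers counting error only. The fitted change was 144-fold (log2 fold change 7.17, SE 0.22, edgeR Benjamini-Hochberg adjusted p = 6.56e-10). With limma on the authors' deposited log2 values it was smaller, at a log2 fold change of 4.62 (limma adjusted p = 1.60e-08). Of 10 trophoblast markers, Tpbpa, Prl3d1 and Ctsq had no count in any library. Another 3 could be tested, with 2 higher and 1 not passing (66.7% called, beside 74.3% of all genes tested). The 10 markers summed to 12.1 to 13.4 CPM at passage 3 and 13.5 to 16.0 CPM at passage 20. Their part in the Ascl2 result was not tested.

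The Ascl2 promoter is shown because this gene went from near the detection limit to a clear level. It is the RefSeq window of 300 bases around the annotated start (chr7:142969215-142969514, GRCm38.p6, minus strand), with CG dinucleotides in capitals.
Ascl2 promoter: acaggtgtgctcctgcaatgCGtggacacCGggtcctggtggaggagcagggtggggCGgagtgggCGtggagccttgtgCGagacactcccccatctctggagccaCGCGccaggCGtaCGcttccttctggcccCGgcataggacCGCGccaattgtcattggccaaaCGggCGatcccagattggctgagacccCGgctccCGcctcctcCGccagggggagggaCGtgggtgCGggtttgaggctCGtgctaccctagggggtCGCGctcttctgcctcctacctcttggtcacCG
It holds 23 CG dinucleotides, where the median over 32851 RefSeq windows was 7. DNA methylation was not measured here.

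Cd81, a tetraspanin of the cell surface, and Tssc4, a gene whose human product takes part in spliceosome assembly, are neighbours on the same strand and moved in opposite directions. Cd81 (ENSMUSG00000037706, chr7:143052739-143067934) was at 260.1, 254 and 264 CPM at passage 3 and 615, 577 and 525 CPM at passage 20, without overlap. It rose 2.21-fold (log2 fold change 1.14, SE 0.06, edgeR Benjamini-Hochberg adjusted p = 2.73e-08). Tssc4 was at 37.0, 35.2 and 37.3 CPM at passage 3 and 24.5, 22.3 and 19.3 CPM at passage 20. It fell, 1.66-fold lower (log2 fold change -0.73, SE 0.09, edgeR Benjamini-Hochberg adjusted p = 2.40e-05). The ratio of Cd81 to Tssc4 counts went from 7.11 ± 0.0936 to 26.1 ± 1.03. Tssc4 shares 220 exon bases on the opposite strand with Trpm5, which had 1628 counts over all libraries against 2598 for Tssc4, so its counts are uncertain.

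Grb10, an adaptor protein that restrains insulin and growth factor receptor signalling and is known to be expressed from the maternal allele outside neurons, rose. Grb10 (ENSMUSG00000020176, chr11:11930508-12038683) was at 10.0, 9.49 and 8.85 CPM at passage 3 and 35.2, 33.4 and 30.3 CPM at passage 20. Every passage 20 library lay far above every passage 3 library. The rise was 3.49-fold (log2 fold change 1.80, SE 0.10, edgeR Benjamini-Hochberg adjusted p = 2.73e-08). Its neighbour Ddc encodes aromatic amino acid decarboxylase and has a transcript known to come from the paternal allele in the embryonic mouse heart. Ddc was at 22.6, 23.7 and 21.4 CPM at passage 3 and 30.1, 25.3 and 23.3 CPM at passage 20, with passage 20 replicate 3 inside the passage 3 range. It did not pass the test (edgeR Benjamini-Hochberg adjusted p = 0.0733), but without that library it did (log2 fold change 0.28, edgeR adjusted p = 0.00404). Gene counts do not separate the heart transcript from the others.

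At the Dlk1-Dio3 cluster of chromosome 12 (109452823 to 110281097), the paternally expressed coding genes split, since Dlk1 rose while Rtl1 and Dio3 fell. The cluster makes coding genes from the paternal allele and, from the maternal allele, the noncoding RNAs Meg3, Rian and Mirg with their small RNAs. Dlk1, a transmembrane relative of the Notch ligands found in many fetal progenitors, was at 1205, 1219 and 1257 CPM at passage 3 and 2456, 2388 and 2172 CPM at passage 20. All passage 20 libraries were higher than all passage 3 libraries. It rose 1.91-fold (log2 fold change 0.93, SE 0.06, edgeR Benjamini-Hochberg adjusted p = 7.91e-08; ENSMUSG00000040856). Fibroblast markers moved as well, with 5 of 7 tested higher and 2 lower (100% called, beside 74.3% of all genes tested) and S100a4 at 0. Their summed level was 13223 to 13960 CPM at passage 3 and 27478 to 32672 CPM at passage 20. Most of this sum came from collagen genes. Col1a1 went from 4353 ± 174 to 12540 ± 1260 CPM and Col3a1 from 3675 ± 76.6 to 9378 ± 715 CPM. The 2 that fell were Pdgfrb, from 172 ± 8.12 to 107 ± 11.7 CPM, and Thy1, from 13.1 ± 0.190 to 5.64 ± 1.68 CPM. The part of the fibroblast markers in the results for Dlk1 and H19 was not tested.

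Dio3, which encodes the type 3 deiodinase that inactivates thyroid hormone, fell the most of all members. Dio3 (ENSMUSG00000075707, chr12:110279068-110281097) was at 11.5, 10.0 and 13.5 CPM at passage 3 and 1.09, 1.09 and 0.987 CPM at passage 20. All passage 3 libraries were high, all passage 20 libraries were low, and the groups lay far apart. The passage 20 libraries held only 11, 11 and 12 counts, so the size of the fall is imprecise. The passage 20 level was 11.0-fold lower (log2 fold change -3.46, SE 0.20, edgeR Benjamini-Hochberg adjusted p = 5.33e-08). With limma on the authors' deposited log2 values the log2 fold change was -2.44 (limma adjusted p = 3.55e-07). Rtl1, a coding gene derived from a retrotransposon and known for its role in placental capillaries, was at 14.7, 13.8 and 13.9 CPM at passage 3 and 8.02, 7.96 and 8.71 CPM at passage 20. The passages did not overlap and the level was 1.71-fold lower at passage 20 (log2 fold change -0.78, SE 0.10, edgeR Benjamini-Hochberg adjusted p = 4.63e-05).

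The Dio3 promoter is shown as the start of the member that fell most (chr12:110278980-110279279, GRCm38.p6, plus strand, RefSeq window of 300 bases, CG dinucleotides in capitals).
Dio3 promoter: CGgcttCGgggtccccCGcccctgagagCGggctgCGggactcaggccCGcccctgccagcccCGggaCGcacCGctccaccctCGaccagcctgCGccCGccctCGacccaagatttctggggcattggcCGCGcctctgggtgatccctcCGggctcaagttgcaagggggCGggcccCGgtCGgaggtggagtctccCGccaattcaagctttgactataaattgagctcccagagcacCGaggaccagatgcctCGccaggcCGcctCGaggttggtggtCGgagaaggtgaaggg
It holds 25 CG dinucleotides and, on either strand, 1 match to CTTTGA, the core bound by TCF and LEF factors of the Wnt pathway. That motif was found in 16.0% of all RefSeq windows and in 6 of the 48 windows of members (12.5%).

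The maternal noncoding RNAs Meg3 and Rian changed less than the coding genes and turned on a single library. Meg3 was at 34.7, 35.0 and 32.5 CPM at passage 3 and 51.0, 45.1 and 31.9 CPM at passage 20. Rian, a host of small nucleolar RNAs, was at 39.98, 33.4 and 31.2 CPM at passage 3 and 46.6, 42.7 and 30.3 CPM at passage 20. In both genes passage 20 replicates 1 and 2 lay above all passage 3 libraries and replicate 3 lay below them. Neither passed edgeR's test with all libraries (Benjamini-Hochberg adjusted p = 0.0776 for Meg3 and 0.308 for Rian), while both did without that library, with log2 fold changes of 0.48 and 0.35 (edgeR adjusted p = 1.56e-07 and 0.00136). Meg3 also passed with no low-count filter (0.29, edgeR adjusted p = 0.00381), and both were below 0 with library sizes only. The ratio of Rian to Meg3 counts was 1.15, 0.954 and 0.963 at passage 3 and 0.915, 0.945 and 0.948 at passage 20, close to 1 in every library. Mirg, a host of miRNAs, was at 1.84, 1.66 and 2.73 CPM at passage 3 and 0.891, 0.796 and 1.73 CPM at passage 20. Its passages overlapped, and its fall (log2 fold change -0.84, edgeR Benjamini-Hochberg adjusted p = 0.0379) was lost with DESeq2 and in 4 of the 6 fits that left out a library.

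Between the start of Dlk1 and the end of Dio3, RefSeq places 58 miRNA hairpins, of which 14 lie in Mirg and 7 in Rtl1. The miRNAs on the strand opposite to Rtl1 come from the maternal allele and match the Rtl1 transcript in full, and they are known to direct cleavage of Rtl1 RNA in the mouse. A few are shown because they lie antisense to a member that fell, with the seed in capitals (RefSeq, GRCm38.p6, plus strand).
miR-431-5p: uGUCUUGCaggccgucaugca
miR-433-3p: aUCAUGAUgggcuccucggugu
miR-127-3p: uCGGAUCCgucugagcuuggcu
miR-434-3p: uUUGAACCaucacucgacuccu
miR-136-5p: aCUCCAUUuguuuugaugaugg
No seed is shared among these 5, and the full complement of each was found in the annotated Rtl1 transcript. Their levels were not measured here.

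**Figure D2:**
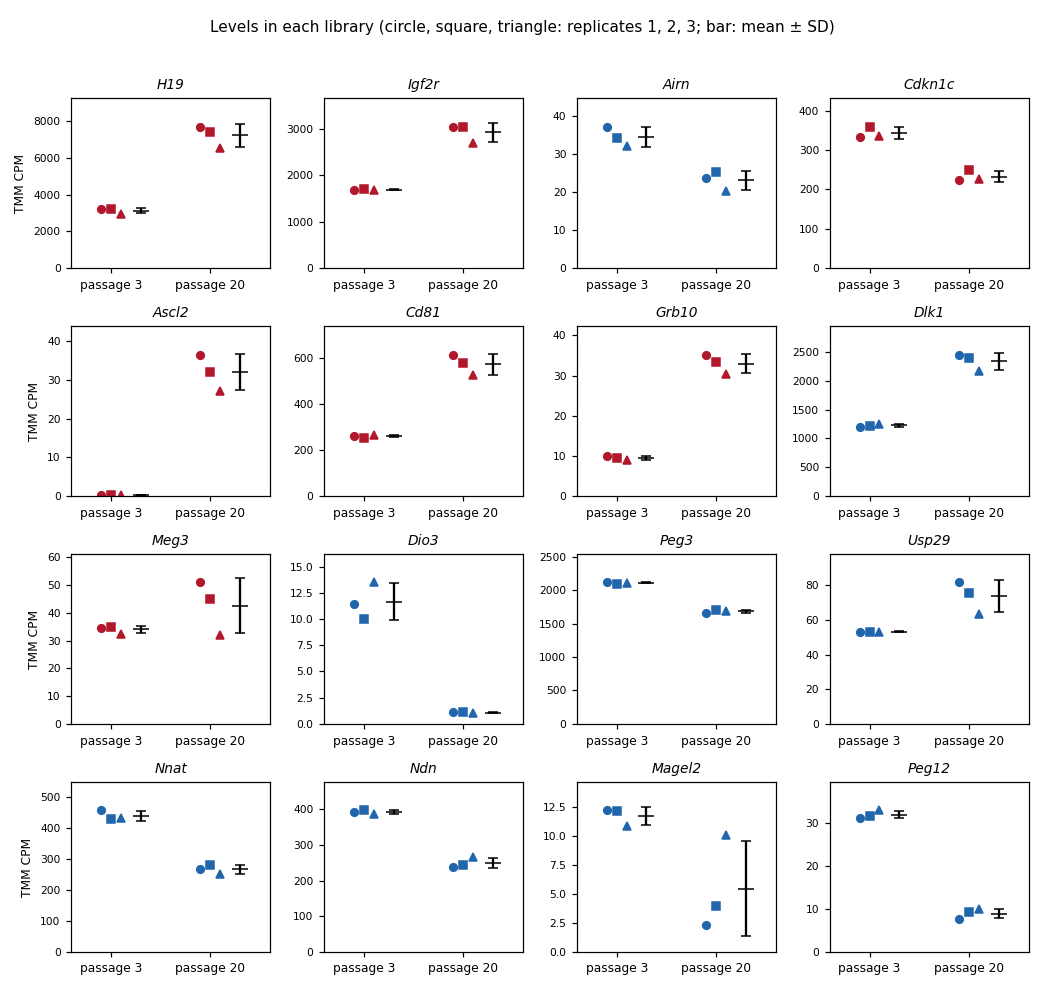
TMM-scaled CPM of 16 imprinted genes in each library, with replicates as circle, square and triangle and the mean ± SD beside them; red marks genes known to be expressed from the maternal allele and blue from the paternal allele. Ascl2 goes from 0.209 ± 0.0378 to 32.0 ± 4.71 CPM, and the triangle of passage 20 replicate 3 lies near the passage 3 libraries in Meg3 and Magel2.

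The Peg3 cluster on proximal chromosome 7 (6671269 to 6967219) held genes that start 147 bases apart and moved in opposite directions. Peg3, a zinc finger gene of the paternal allele known for effects on growth and maternal care, was among the abundant members. Peg3 (ENSMUSG00000002265) was at 2118, 2101 and 2116 CPM at passage 3 and 1659.7, 1701 and 1693 CPM at passage 20. All passage 20 libraries were lower, 1.25-fold on average (log2 fold change -0.33, SE 0.05, edgeR Benjamini-Hochberg adjusted p = 5.85e-05). Usp29, a ubiquitin protease gene read in the other direction from the shared promoter, was at 52.7, 53.2 and 53.2 CPM at passage 3 and 81.6, 75.8 and 63.5 CPM at passage 20. It lay higher in every passage 20 library, 1.38-fold on average (log2 fold change 0.47, SE 0.09, edgeR Benjamini-Hochberg adjusted p = 0.000445), a call lost with scaling by library sizes only (log2 fold change 0.14). The ratio of Peg3 to Usp29 counts, which no scaling changes, went from 39.8 ± 0.347 to 23.2 ± 3.22. Zim1, a zinc finger gene of the maternal allele, was at 262, 265 and 261 CPM at passage 3 and 354, 367 and 295 CPM at passage 20. It was 1.29-fold higher (log2 fold change 0.37, SE 0.07, edgeR Benjamini-Hochberg adjusted p = 0.000928), and this call too was lost with library sizes only (log2 fold change 0.03).

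The shared Peg3 and Usp29 promoter is shown because both genes start inside it (chr7:6730333-6730632, GRCm38.p6, RefSeq window of Usp29, plus strand, CG dinucleotides in capitals), and in the mouse it is known to carry methylation of maternal origin.
Usp29 promoter: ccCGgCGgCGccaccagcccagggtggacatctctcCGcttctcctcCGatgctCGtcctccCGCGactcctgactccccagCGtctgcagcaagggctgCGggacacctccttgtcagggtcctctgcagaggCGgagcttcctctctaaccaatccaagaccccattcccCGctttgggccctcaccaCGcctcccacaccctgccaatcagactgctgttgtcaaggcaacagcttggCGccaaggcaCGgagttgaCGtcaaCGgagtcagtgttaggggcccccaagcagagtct
It holds 17 CG dinucleotides and no match to TGCCGC on either strand, the motif that ZFP57, a zinc finger protein known to maintain imprints, binds when it is methylated. TGCCGC was found in 11.6% of all RefSeq windows and in 10 of the 48 member windows (20.8%). The 10 include Mest windows that overlap almost fully, starting at 30737800 and 30737803. The motif holds a CG, and member windows had a median of 14 CG dinucleotides against 7 for all windows. The difference in motif share was not tested.

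At the Peg10 cluster on chromosome 6 (4674350 to 5433022), 3 members were higher and 1 lower. Peg10, a retrotransposon-derived gene of the paternal allele needed for the mouse placenta, was second in level per length in both passages. It was at 2697, 2635 and 2637 CPM at passage 3 and 3359, 3261 and 3135 CPM at passage 20, 1.22-fold higher at passage 20 (log2 fold change 0.29, SE 0.05, edgeR Benjamini-Hochberg adjusted p = 0.000258), but -0.04 with library sizes only. Sgce, which encodes epsilon-sarcoglycan and starts 99 bases from Peg10 on the opposite strand, was at 119, 117 and 119.7 CPM at passage 3 and 177, 181 and 167 CPM at passage 20. It rose 1.47-fold (log2 fold change 0.56, SE 0.05, edgeR Benjamini-Hochberg adjusted p = 2.17e-06), without overlap between passages. In contrast to Peg3 and Usp29, this divergent pair moved the same way with TMM scaling, and the ratio of Peg10 to Sgce counts went from 22.4 ± 0.329 to 18.6 ± 0.502. Ppp1r9a, which encodes the actin-binding neurabin, was at 29.1 to 32.7 CPM at passage 3 and 21.5 to 27.0 CPM at passage 20, a fall (log2 fold change -0.35, edgeR Benjamini-Hochberg adjusted p = 0.00585). Asb4, a ubiquitin ligase adaptor, was at 38.2 to 40.7 CPM and 44.1 to 47.7 CPM, a call (log2 fold change 0.20, edgeR Benjamini-Hochberg adjusted p = 0.0165) that was lost in 6 alternatives and turned to -0.13 with library sizes only.

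In the Mest and Nnat clusters the paternally expressed gene fell and its opposite-strand neighbour did not pass the test, with log2 fold changes of 0.02 for Copg2 and 0.01 for Blcap. Mest, an alpha/beta hydrolase gene of mesodermal tissue, was at 616, 610.0 and 579 CPM at passage 3 and 460.0, 476 and 424 CPM at passage 20. All passage 20 libraries were lower, 1.33-fold on average (log2 fold change -0.41, SE 0.06, edgeR Benjamini-Hochberg adjusted p = 4.74e-05). Copg2, a coatomer subunit gene with a maternal bias known in brain, was at 72.6, 70.4 and 72.6 CPM at passage 3 and 73.4, 72.4 and 72.7 CPM at passage 20 and did not pass the test. The ratio of Mest to Copg2 counts went from 8.37 ± 0.359 to 6.23 ± 0.371, without overlap. The genes share 912 exon bases on opposite strands, so counts in that stretch are uncertain.

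Nnat, which encodes the small membrane protein neuronatin, lies within an intron of Blcap on the opposite strand. Nnat (ENSMUSG00000067786, chr2:157560078-157562522) was at 456, 427 and 432 CPM at passage 3 and 267, 279 and 252 CPM at passage 20. Its passages did not overlap, and the passage 20 level was 1.65-fold lower (log2 fold change -0.72, SE 0.05, edgeR Benjamini-Hochberg adjusted p = 3.82e-07). Blcap, a broadly expressed gene with a maternal bias known in brain, was at 45.4, 44.9 and 44.2 CPM at passage 3 and 45.5, 45.5 and 44.2 CPM at passage 20 and did not pass the test. With library sizes only, Copg2 and Blcap were -0.31 and -0.32, close to the shift of all genes. The ratio of Nnat to Blcap counts went from 9.77 ± 0.261 to 5.90 ± 0.209.

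The Nnat promoter is shown as a paternally active start inside the intron of a gene that did not pass the test (chr2:157559828-157560127, GRCm38.p6, plus strand, RefSeq window, CG dinucleotides in capitals), and it is known to be methylated on the maternal allele.
Nnat promoter: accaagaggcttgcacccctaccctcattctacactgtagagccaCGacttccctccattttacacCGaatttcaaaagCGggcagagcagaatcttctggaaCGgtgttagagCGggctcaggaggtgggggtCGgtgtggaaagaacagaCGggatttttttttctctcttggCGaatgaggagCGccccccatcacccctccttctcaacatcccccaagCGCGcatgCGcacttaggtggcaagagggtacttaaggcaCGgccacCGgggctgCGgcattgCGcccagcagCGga
It holds 17 CG dinucleotides and 1 match to TGCCGC on either strand. Windows were found for 34 members, 48 windows in all, with 0 to 48 CG dinucleotides and a median of 14. A further motif, ACGTG, the core bound by hypoxia-inducible factors, was in 10 of the 48 (20.8%) and in 19.6% of all windows, once in the Ascl2 window. Both strands were searched and in no member window did matches of different motifs overlap.

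At the Snrpn cluster of central chromosome 7 (59228750 to 62464510), homologous to the Prader-Willi and Angelman region of humans, 1 member rose, 3 fell and 2 did not pass the test. Snrpn, a splicing protein gene at the imprinting centre, was at 13.3, 13.6 and 15.1 CPM at passage 3 and 21.1, 19.4 and 19.6 CPM at passage 20. It rose 1.43-fold (log2 fold change 0.51, SE 0.09, edgeR Benjamini-Hochberg adjusted p = 0.000437), a call lost with library sizes only (0.18). Snrpn shares 589 exon bases with Gm38393 and 216 with Snurf on the same strand. Over all libraries Gm38393 had 1476 counts and Snurf 0, against 1374 for Snrpn. The level of Snrpn, its rise and ratios to it are therefore uncertain. Ndn, which encodes necdin, a growth suppressor of the MAGE family, was at 393, 397 and 388 CPM at passage 3 and 237, 245 and 266 CPM at passage 20. All passage 20 libraries were lower, 1.58-fold on average (log2 fold change -0.66, SE 0.05, edgeR Benjamini-Hochberg adjusted p = 7.90e-07).

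Peg12, a relative of the Frat proteins that bind glycogen synthase kinase and promote Wnt signalling, fell the most in this cluster. Peg12 (ENSMUSG00000070526, chr7:62461871-62464510) was at 31.1, 31.6 and 32.8 CPM at passage 3 and 7.62, 9.15 and 9.87 CPM at passage 20. Every passage 20 library lay far below every passage 3 library. The level was 3.57-fold lower (log2 fold change -1.84, SE 0.10, edgeR Benjamini-Hochberg adjusted p = 3.82e-08). Magel2, a ubiquitin ligase regulator of the MAGE family, was at 12.2, 12.2 and 10.9 CPM at passage 3 and 2.28, 3.98 and 10.1 CPM at passage 20. Passage 20 replicate 3 lay just under the passage 3 range and the other passage 20 libraries far below it. Magel2 did not pass edgeR's test (log2 fold change -1.05, Benjamini-Hochberg adjusted p = 0.0602), but did without that library (log2 fold change -1.92, edgeR adjusted p = 1.83e-12) and with limma-voom, limma on the deposited log2 values or library sizes only. Mkrn3, a zinc finger ubiquitin ligase gene known to restrain puberty, was at 11.8 to 13.4 CPM and 11.6 to 13.6 CPM and did not pass. Ube3a, a ubiquitin ligase gene silenced on the paternal allele only in neurons, was at 136, 139 and 129 CPM at passage 3 and 93.8, 107 and 129.8 CPM at passage 20. Its passages overlapped, and its fall (log2 fold change -0.29, edgeR Benjamini-Hochberg adjusted p = 0.0293) was lost in 4 of the 6 fits that left out a library. It also shares 1803 exon bases with the antisense RNA Snhg14, which had 2261 counts.

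Several genes of this cluster are strongly expressed in neurons. Of 6 tested neuron markers, 2 were higher, 3 lower and 1 did not pass (83.3% called, beside 74.3% of all genes tested). Their summed level, over 8 markers, was 111 to 116 CPM at passage 3 and 108 to 125 CPM at passage 20, none of them at 0. Within that sum Stmn2, a microtubule regulator of growing axons, fell from 61.7 ± 1.12 to 4.85 ± 0.807 CPM, while Tubb3, a neuronal tubulin, rose from 33.4 ± 2.19 to 91.6 ± 10.3 CPM. The part of these markers in the falls of Ndn, Peg12 and Nnat was not tested. In bulk RNA, fewer cells with a gene and less RNA per cell cannot be told apart. The ratios of Ndn to its neighbours moved in different directions. They went from 28.2 ± 2.12 to 12.5 ± 1.18 for Snrpn, whose counts are uncertain, and from 12.3 ± 0.451 to 28.2 ± 2.45 for Peg12. For Magel2 the ratio was 32.1, 32.6 and 35.7 at passage 3 and 104, 61.5 and 26.3 at passage 20, and the passages overlapped through passage 20 replicate 3.

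The remaining clusters held 1 or 2 members each. Plagl1, a zinc finger transcription factor of the paternal allele known to control other imprinted genes, was at 1779, 1738 and 1629.9 CPM at passage 3 and 2320.1, 2328 and 1808 CPM at passage 20. Passage 20 replicate 3 lay close above the passage 3 range. It was 1.25-fold higher (log2 fold change 0.33, SE 0.09, edgeR Benjamini-Hochberg adjusted p = 0.00980), and at -0.01 with library sizes only. Impact, a regulator of translation that limits the kinase GCN2, was at 205, 208 and 199 CPM at passage 3 and 106, 127 and 111 CPM at passage 20. It fell without overlap, 1.78-fold lower (log2 fold change -0.83, SE 0.07, edgeR Benjamini-Hochberg adjusted p = 7.40e-07). Zrsr1, a splicing factor retrogene inside an intron of Commd1, was at 18.1 to 21.1 CPM and 15.9 to 18.7 CPM, and Commd1, a copper metabolism gene, at 2.34 to 2.83 CPM and 2.47 to 3.45 CPM. Neither passed, and they share 412 exon bases on opposite strands. Zrsr1 was called lower in 3 alternatives, with log2 fold changes of -0.28 with upper-quartile factors, -0.53 with library sizes only and -0.28 without passage 3 replicate 3. Gnas, the gene of the stimulatory G protein alpha subunit with several imprinted first exons, was at 70.8, 52.0 and 63.9 CPM at passage 3 and 71.7, 58.8 and 44.7 CPM at passage 20. It did not pass, and its promoters, which have different imprints, cannot be told apart in gene counts. Gnas also shares 1469 exon bases with Gm20721 and 988 with Nespas on the opposite strand, so its counts are uncertain.

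**Figure D3:**
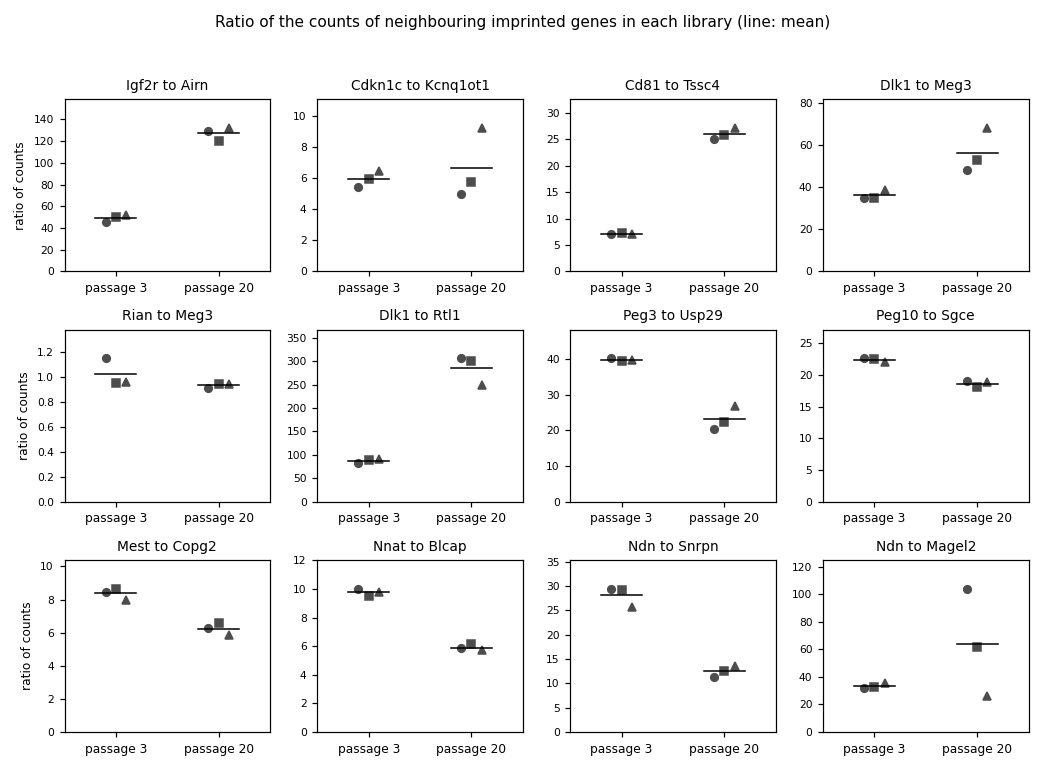
Ratio of the raw counts of neighbouring imprinted genes within each library, with replicates as circle, square and triangle and a line at the mean. A ratio within a library does not depend on the scaling; Igf2r to Airn and Cd81 to Tssc4 are higher in every passage 20 library, Peg3 to Usp29 is lower in every one, and Cdkn1c to Kcnq1ot1 and Ndn to Magel2 overlap.

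Of the 19 count ratios computed within clusters, Ascl2 to Tssc4 changed the most, from 0.00573 ± 0.000919 to 1.45 ± 0.0449, and rests on the few Ascl2 counts of passage 3. Dlk1 to Dio3 came next, from 107 ± 14.2 to 2213 ± 38.0. It rests on 11, 11 and 12 Dio3 counts at passage 20, so that SD does not show the counting error. Dlk1 to Rtl1 went from 86.9 ± 4.39 to 285 ± 31.4. Dlk1 to Meg3 went from 36.1 ± 2.28 to 56.4 ± 10.4, higher in every passage 20 library, and Grb10 to Ddc from 0.419 ± 0.0213 to 1.26 ± 0.0817. Peg3 to Zim1 went from 8.04 ± 0.104 to 5.02 ± 0.619 and Ndn to Mkrn3 from 31.4 ± 1.72 to 19.7 ± 1.25. Zrsr1 to Commd1 ratios overlapped, with means of 7.99 and 5.77. With 3 libraries against 3, an exact permutation test on a single ratio cannot give a two-sided p below 0.1, so no ratio was tested.

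Per kb of exon, which allows a rough comparison of different genes, the members spread widely in both passages. The divisor is the union of annotated exons, whichever transcripts are used. Counts of members with shared exons are uncertain, so places in the order are approximate. H19 was highest, from 1268 to 2935 TMM CPM per kb, followed by Peg10, from 398 to 488. At passage 3 the next were Nnat, Plagl1, Dlk1 and Igf2r, and at passage 20 they were Dlk1, Igf2r, Plagl1 and Cd81. Nnat went from the third to the seventh place (239.6 to 145), and Dlk1 from the fifth to the third (217 to 413). Ascl2 went from the lowest level of the 40 to rank 14 (0.129 to 19.7), and Dio3 from rank 24 to rank 36 (5.75 to 0.520). Of the 39 pairs of neighbours in the order, 13 overlapped in their libraries at passage 3 and 21 at passage 20, so much of the order below the most abundant genes is not resolved. Among the genes named here these were Plagl1 and Dlk1 at passage 3 (208 to 228 and 213 to 222 TMM CPM per kb), Igf2r and Plagl1 at passage 20 (289 to 328 and 231 to 298), Ascl2 at passage 20 with both its neighbours, Impact and Sgce (16.8 to 22.6 beside 20.6 to 24.8 and 15.7 to 17.0), and Dio3 with its neighbours in both passages (Snrpn and Gnas at passage 3, Magel2 and Commd1 at passage 20). Mest and Cdkn1c also overlapped at passage 20 (108 to 121 and 109 to 122), and so did Rian and Meg3 in both passages (1.71 to 2.19 and 1.79 to 1.93 at passage 3, 1.66 to 2.56 and 1.76 to 2.82 at passage 20).

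**Figure D4:**
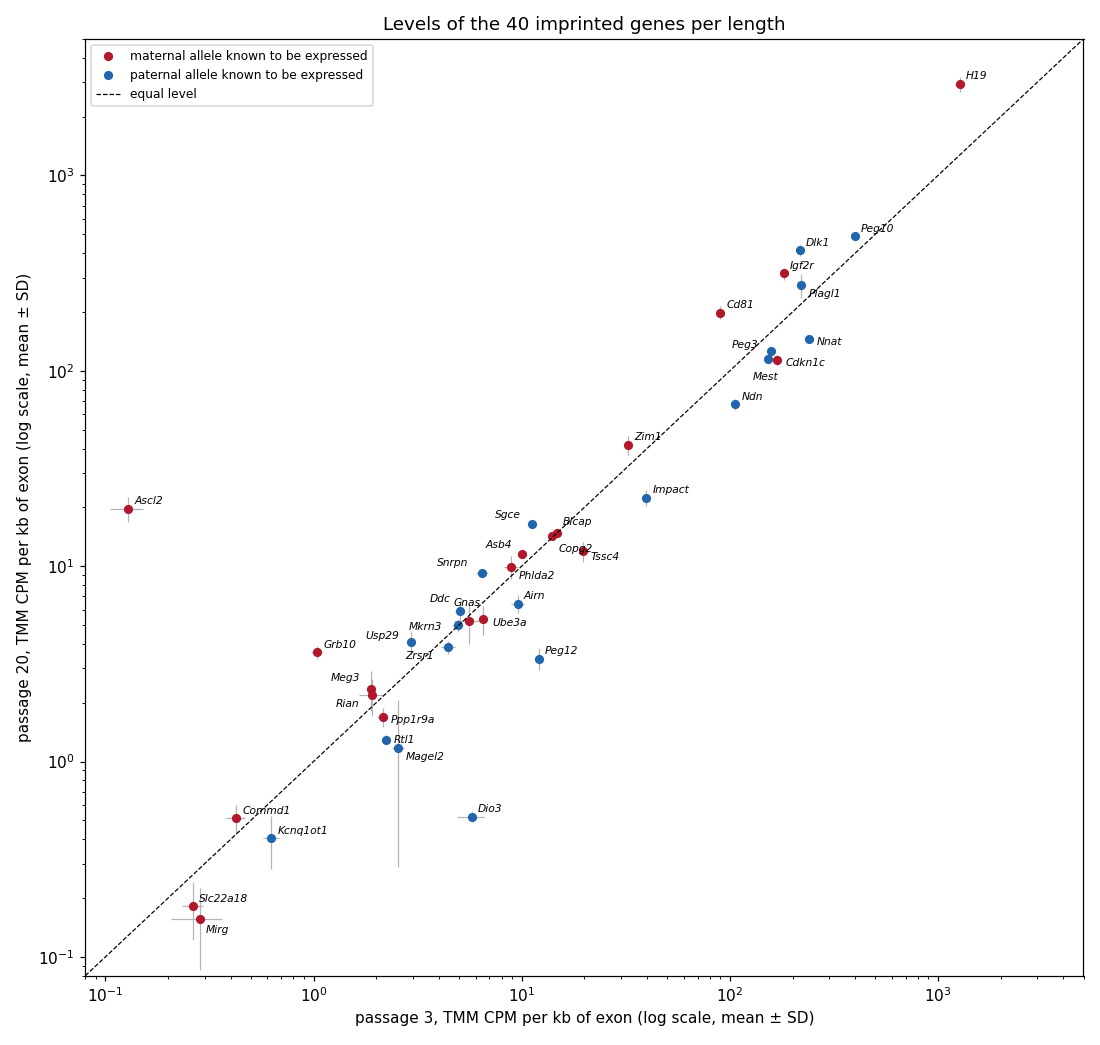
Mean level of each of the 40 imprinted genes per kb of exon at passage 3 and passage 20, on log axes, with SD as grey bars (n = 3). Points above the dashed line were higher at passage 20; Ascl2 lies far above it and Dio3 and Peg12 lie below it.

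By parental allele, the 19 tested maternally expressed members had 7 higher, 5 lower and 7 not passing, with a median log2 fold change of 0.19. The 20 paternally expressed members had 6 higher, 10 lower and 4 not passing, with a median of -0.37, against -0.01 for all genes. Thus 63.2% of the maternally and 80.0% of the paternally expressed members were called, beside 74.3% of all genes tested. The passages did not overlap in 10 of the 19 (52.6%) and in 17 of the 20 (85.0%), beside 77.5% of all genes tested. An imprint known only in some tissues was held by 9 of the tested maternally and 1 of the paternally expressed members. With a broad imprint, 10 maternally expressed members had 5 higher and 2 lower (70.0% called, median 0.26). The 19 paternally expressed members with a broad imprint had 6 higher and 10 lower (84.2% called, median -0.41). The difference between the alleles was not tested, because members of a cluster share control regions and are not independent. Both groups held members with large changes, since Ascl2, Grb10, H19 and Cd81 are maternally expressed and Dio3 and Peg12 paternally expressed. Summed over members, maternally expressed genes reached 6002 to 6283 CPM at passage 3 and 10782 to 12521 CPM at passage 20, and paternally expressed genes 9632 to 9876 CPM and 10239 to 11290 CPM. H19 and Igf2r made up most of the maternal sum, and the other 18 members came to 1367 to 1389 CPM at passage 3 and 1560.1 to 1761 CPM at passage 20.

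Among the 10 members whose imprint is known only in some tissues, such as placenta, brain or heart, 2 were higher, 3 lower and 5 did not pass (50.0% called, median 0.01). Among the 29 tested members with a broad imprint, 11 were higher, 12 lower and 6 did not pass (79.3% called, median 0.02). Promoters of 12 members, such as Peg3, Nnat, Mest and Airn, are known to lie in a region methylated in the egg. Of these members, 5 were higher, 6 lower and 1 did not pass (91.7% called, median -0.26). None changed by 2-fold, a change called in 27.6% of all genes tested. Usp29 was placed among the 12 after the values were seen. The other 27 tested members had 8 higher, 9 lower and 10 not passing (63.0% called, median 0.02). Of all genes tested, 74.3% were called, and the differences between these sets were not tested. Of the 6 long noncoding RNAs, H19 rose, Airn, Kcnq1ot1 and Mirg fell, and Meg3 and Rian did not pass.

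A network of 12 imprinted genes that are known to be expressed together in growing mouse tissue, all of them members, had 6 higher (H19, Igf2r, Grb10, Dlk1, Sgce and Plagl1), 4 lower (Cdkn1c, Peg3, Mest and Ndn) and 2 not passing (Meg3 and Gnas). Their median log2 fold change was 0.32, and 83.3% were called, beside 74.3% of all genes tested. The 12 did not all move in the same direction.

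Other imprinted genes outside the 40, from a list of 36 of which 26 were tested, had 13 higher, 9 lower and 4 not passing. Their median was 0.16, and 84.6% were called, beside 74.3% of all genes tested. Qpct, a glutaminyl cyclase gene, went from 15.5 ± 0.838 to 51.8 ± 3.86 CPM, and Slc38a4, an amino acid transporter gene, from 666 ± 11.7 to 1177 ± 65.5 CPM. Peg13, a noncoding RNA of the paternal allele, went from 13.4 ± 0.502 to 2.17 ± 0.881 CPM and had the largest fall of the 26. The genes that flank the clusters, 3 tested coding genes on each side that are on none of the imprinted lists used here, numbered 79. Trpm5, taken as a flank of H19, is among them, but lies inside the Kcnq1ot1 cluster and shares 220 exon bases with Tssc4. Of the 79, 31 were higher, 27 lower and 21 did not pass, with a median of -0.0021, beside a median of 0.02 for the members. Among all genes tested, 37.0% were called higher and 37.3% lower.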

How the data were processed

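RNA-seq libraries from 3 samples at passage 3 and 3 at passage 20 were used. For each sample the authors deposited raw counts by gene as whole numbers and, separately, values on a log2 scale whose transformation is not stated. Per the submitters' processing notes, HISAT2 2.0.5, SAMtools, HTSeq and DESeq2 were used with the mouse build GRCm38. Neither the annotation release nor strand handling is given in the sources used here, so antisense and overlapping genes are uncertain. Series-wide tables repeated the per-sample values and were left aside.

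Gene names, positions, exon lengths and overlaps were taken from GENCODE M21 (GRCm38), which covered 53706 of 53801 gene identifiers. The 95 others took 0.00623% of counts. Counts were filtered with filterByExpr, which left 15143 genes, and scaled with TMM factors of 1.12 to 1.13 at passage 3 and 0.873 to 0.917 at passage 20. The test was the robust quasi-likelihood test of edgeR 4.0.16 in R 4.3.3, with Benjamini-Hochberg adjustment over all genes and calls at 0.05. The biological coefficient of variation was 7.05% over all genes, and total counts of 11387738 to 17721788 per library set the precision of low genes. Levels per kb divide CPM by the union of annotated exons. Counting intervals are exact binomial intervals on pooled counts (scipy 1.17.1).

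The members, clusters, alleles, imprint scope and gene lists were chosen with earlier results of these data known, and the alleles are textbook knowledge. All 40 members are described. Values in every library are given for called members with at least 5 CPM and a 2-fold change and for the lead or noncoding genes of each cluster, and for others where 1 library or an alternative bears on the result, which was chosen after their values were seen. Other lists name at most 3 genes per direction by adjusted p, and levels of Dnmt1, Dnmt3b, Tet2 and Tet3 were added after seeing them. Whether Usp29 counts among the genes with a germline-methylated promoter was corrected after the values were seen.

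As alternatives, scaling used RLE factors, upper-quartile factors or library sizes only. Tests used DESeq2 1.42.0, limma-voom (limma 3.58.1) or limma on the authors' deposited log2 values, and filters were dropped or set to 1 CPM in 3 libraries. Other alternatives were calls at 0.01, a replicate block and each library left out in turn. Promoter windows and miRNA sequences are from RefSeq (GRCm38.p6), with motifs counted on both strands.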

Additional observations from a re-analysis of the deposited data

How the results depend on the processing

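Of 28 called members, 19 kept their direction and their call in each of the 15 refits run. Scaling by library sizes only moved most: 7 members and 3528 of all genes were then called higher, and Phlda2 (-0.18), Ddc (-0.12), Meg3 (-0.014), Rian (-0.15), Peg10 (-0.041), Asb4 (-0.13), Copg2 (-0.31), Blcap (-0.32), Plagl1 (-0.0078), Commd1 (-0.062) and Mkrn3 (-0.31) turned negative on the log2 scale, as the scaling shifts all genes, and Copg2, Blcap, Mkrn3, Zrsr1 (-0.53) and Gnas (-0.43) were then called lower. The fold change itself, not its log2 value, moved by more than a factor of 1.5 in 3 members. These were Ascl2 (log2 fold change 4.62) and Dio3 (-2.44) with limma on the deposited log2 values and Magel2 (-1.92) without passage 20 replicate 3. Smaller changes could also move by much of their log2 value, with Igf2r (0.80) as low as 0.46 and Sgce (0.56) as low as 0.23 across the alternatives. Members near 0 also turned with upper-quartile factors (Copg2 -0.059, Blcap -0.070, Mkrn3 -0.056), no low-count filter (Copg2 -0.013, Blcap -0.023, Mkrn3 -0.0100) and DESeq2 (Copg2 -0.0014, Blcap -0.012), and none of these was called in the main result. Leaving out each library gave 12 to 16 members higher and 12 to 16 lower, beside 5289 to 6103 and 5244 to 6266 of all genes. These fits gave ranges of -0.0079 to 0.024 for Copg2, -0.014 to 0.0080 for Blcap, -0.053 to 0.080 for Mkrn3 and -0.27 to 0.052 for Gnas. With the replicate block, 14 members were higher and 15 lower, and 5521 and 5582 of all genes. Deviations of samples with the same replicate number had correlations of 0.014, -0.027 and 0.045, so the numbers were not taken to pair samples, and Meg3 alone gained a call. At a threshold of 0.01, 12 members were higher and 12 lower, beside 4849 and 4763 of all genes. Low counts limit Slc22a18, Mirg and Commd1, Ascl2 at passage 3 and Dio3 at passage 20.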

Other observations

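Factors that set, keep or remove imprints changed in both directions, and were listed because the imprinted genes depend on them. Of 26 listed factors 25 were tested, with 8 higher, 12 lower and 5 not passing edgeR's test, and a median log2 fold change of -0.12 against -0.01 for all genes. The share called was 80.0%, close to the 74.3% of all genes tested. Among the DNA methyltransferases, Dnmt3a, which writes methylation on unmethylated DNA, fell from 466 ± 12.6 to 255 ± 9.92 CPM (SD, n = 3). Dnmt3b fell from 15.3 ± 0.0354 to 10.9 ± 0.399 CPM. Dnmt1, which copies methylation at replication, did not pass and was at 240 and 229 CPM on average. Dnmt3l, the catalytically inactive partner of Dnmt3a in germ cells, had 3 counts in all at passage 3 and 115 at passage 20, a pooled ratio of 61.4 with a 95% counting interval of 20.5 to 302. Tet1, an enzyme that oxidises methylated cytosine, rose from 64.0 ± 6.28 to 122 ± 7.13 CPM. Of its relatives, Tet2 rose from 60.5 ± 4.86 to 216 ± 44.1 CPM and Tet3 fell from 167 ± 3.70 to 113 ± 18.2 CPM. Kdm1b, a histone demethylase needed for imprints in the mouse egg, fell from 15.6 ± 0.704 to 8.27 ± 0.969 CPM, and Ctcf, whose protein insulates imprinted domains, from 102 ± 5.41 to 70.3 ± 5.87 CPM. Yy1, a zinc finger factor that binds the Peg3 control region in the mouse, rose from 121 ± 2.69 to 162 ± 2.13 CPM. DNA methylation and allele use were not measured, so these levels say nothing of the state of the imprints.

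Of 5 tested pluripotency markers, 4 were higher and 1 did not pass, with a summed level over 6 markers of 11.5 to 12.2 CPM at passage 3 and 32.7 to 37.2 CPM at passage 20 and none at 0. Of 4 tested skeletal muscle markers, 2 were higher, 1 lower and 1 did not pass, with 9.49 to 9.76 CPM and 13.6 to 15.7 CPM summed over 7 markers and Myf5 at 0. The shares called were 80.0% and 75.0%, beside 74.3% of all genes tested. The part of these markers in the results for imprinted genes was not tested.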
